A study of Mus musculus with 1 sample.

Results

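The Ly6 surface antigens Ly6c1, Ly6c2, Ly6a, Ly6e and Ly6d were examined in the blood of 1 vehicle-treated mouse with small cell lung cancer (SCLC), as 5 of the 32285 genes in a count matrix of droplet barcodes. The 5 genes were named for how their unique molecular identifiers (UMIs, tags that each mark 1 captured RNA molecule) fell across barcodes grouped by the lineage genes they held. They were therefore chosen by the same measured values that are given below, which are a description and carry no test. The mouse carried the autochthonous model in which virus-delivered Cre deletes Rb1 and Trp53 in the lung, and it received phosphate-buffered saline as vehicle. T lymphocytes were enriched from its blood by negative selection, and gene expression and T cell receptor (TCR) libraries were made from the same droplets. The study set vehicle against combined anti-PD-1 and ERBB2 inhibition, and the combination-treated mouse was not analysed here. Neither the strain nor the age of this mouse is given in the labels, and with 1 library there is no replicate error and no comparison between mice.

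Ly6 proteins are small, cysteine-rich folds that sit on the outer membrane on a glycosylphosphatidylinositol (GPI) anchor. In mice several of them serve as markers of blood cell types: Ly6C, made by Ly6c1 and Ly6c2, marks monocytes and memory CD8 T cells, Ly6a (Sca-1) marks stem cells and activated lymphocytes, and Ly6d marks B-lineage cells. Ly6e is more widely expressed and is known for its part in the entry of viruses. Ly6a, Ly6c and Ly6e are among the genes that interferons induce.

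The 1600 barcodes with the most UMIs were kept, with 1334 to 18399 UMIs and a median of 3934.5, which together hold 62.0% of all UMIs. They were split by their UMIs into groups that do not overlap. CD8-only barcodes held Cd8a or Cd8b1 and no Cd4. Those with a UMI of Il2rb, the β chain of the receptor for IL-2 and IL-15, or of the granzymes Gzma, Gzmb or Gzmk numbered 419 and had a median of 6842 UMIs. Those without any of these numbered 282, with a median of 4089 UMIs. CD4-only barcodes numbered 351, with a median of 3361 UMIs. Foxp3, the factor of regulatory T cells, marked 39 barcodes, and Cd79a, a chain of the B cell receptor complex, marked 106. A further 46 barcodes held both Cd4 and a CD8 gene, and 357 held none of these lineage genes. Depth differed between the CD8-only groups, and the cause was not tested. A deeper barcode is more likely to hold an Il2rb or granzyme UMI. Levels are therefore given as UMIs pooled over a group per 10000 UMIs. Intervals are exact 95% Poisson intervals for levels and exact 95% binomial (Clopper-Pearson) intervals for shares. Those of ratios come from the same binomial interval on the split of a gene's UMIs between the compared groups. All intervals cover counting error only.

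The groups bore out their names by other markers in part. Cd3e was held by 93.8% of the CD8-only barcodes with Il2rb or granzyme, 84.6% of the CD4-only barcodes and 17.0% of the Cd79a barcodes. Cd40lg was held by 38.2% of the CD4-only barcodes against 0.477% of the CD8-only barcodes with Il2rb or granzyme, and Ms4a1 by 73.6% of the Cd79a barcodes. Il2ra was held by 35.9% of the Foxp3 barcodes, but 20.5% of these held Cd8b1, and 15.4% held Gzmb. A low share of ribosomal protein transcripts, under 10% of a barcode's UMIs, was found in 21.5% of the CD8-only barcodes with Il2rb or granzyme, 42.2% of those without, 40.5% of the CD4-only, 23.1% of the Foxp3 and 26.4% of the Cd79a barcodes. This share moved with the Ly6 levels, as given below.

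All 5 genes lie on mouse chromosome 15 within 350011 bases. By RefSeq on GRCm38.p6, the build family of the deposited counts, Ly6d spans chr15:74762056-74763567, Ly6e chr15:74955025-74959904, Ly6a chr15:74994877-74998031, Ly6c1 chr15:75044018-75048920 and Ly6c2 chr15:75108161-75112066. Ly6c1 and Ly6c2 are near copies of each other, so whether their UMIs can be told apart matters for what follows. Their spliced coding sequences, taken from the GENCODE vM39 annotation of GRCm39, are each 396 bases long and differ at 9 of them (97.7% identical). The 300 bases from the start codon are shown with the differing bases in capitals, since 6 of the 9 differences fall in the first 70 coding bases.
Ly6c1: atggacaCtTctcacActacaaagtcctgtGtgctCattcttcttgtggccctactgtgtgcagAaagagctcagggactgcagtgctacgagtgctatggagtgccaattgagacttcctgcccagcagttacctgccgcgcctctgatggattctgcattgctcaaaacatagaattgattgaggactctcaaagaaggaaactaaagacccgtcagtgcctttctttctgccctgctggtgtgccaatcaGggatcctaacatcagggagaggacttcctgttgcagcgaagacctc
Ly6c2: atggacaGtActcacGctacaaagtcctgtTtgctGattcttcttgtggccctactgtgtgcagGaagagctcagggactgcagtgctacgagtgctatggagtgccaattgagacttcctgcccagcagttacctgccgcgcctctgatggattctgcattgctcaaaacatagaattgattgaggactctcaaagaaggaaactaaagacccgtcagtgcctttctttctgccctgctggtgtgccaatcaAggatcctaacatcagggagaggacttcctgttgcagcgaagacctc
Of all stretches of 150 bases in the Ly6c1-201 transcript, 5.61% occur unchanged in a Ly6c2 transcript, and of stretches of 50 bases 31.7%. Reads from those stretches cannot be assigned to either copy, and neither the transcript end that was read nor the number of reads left uncounted is given in the sources used here. The RefSeq promoter windows of Ly6c1 and Ly6c2 (250 bases before to 50 after each start, GRCm38.p6) held no match on either strand to GAAANNGAA, the core of the interferon-stimulated response element, or TTCNNNGAA, the gamma-activated site. Of 32851 promoter windows, 8.56% and 8.30% hold these letters.

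Among the compared groups, Ly6c2 was highest in the CD8-only barcodes, and within these where Il2rb or a granzyme was held. Those with Il2rb or granzyme held 3389 Ly6c2 UMIs, a level of 10.9 per 10000 (10.5 to 11.2). Those without held 490, a level of 3.50 (3.20 to 3.82), and CD4-only barcodes held 87, a level of 0.634 (0.508 to 0.783). The level was thus 3.11-fold (2.83 to 3.42) higher with than without Il2rb or granzyme, and 5.51-fold (4.38 to 7.01) higher in CD8-only barcodes without these genes than in CD4-only barcodes. Among all genes with at least 20 UMIs in the 2 groups together, Ly6c2 ranked 194 from the highest of 9636 in the former comparison and 51 of 9019 in the latter. In the former 4.32% of the genes were at least 2-fold higher and 3.44% at least 2-fold lower, and in the latter 2.35% and 6.32%.

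**Figure D1:**
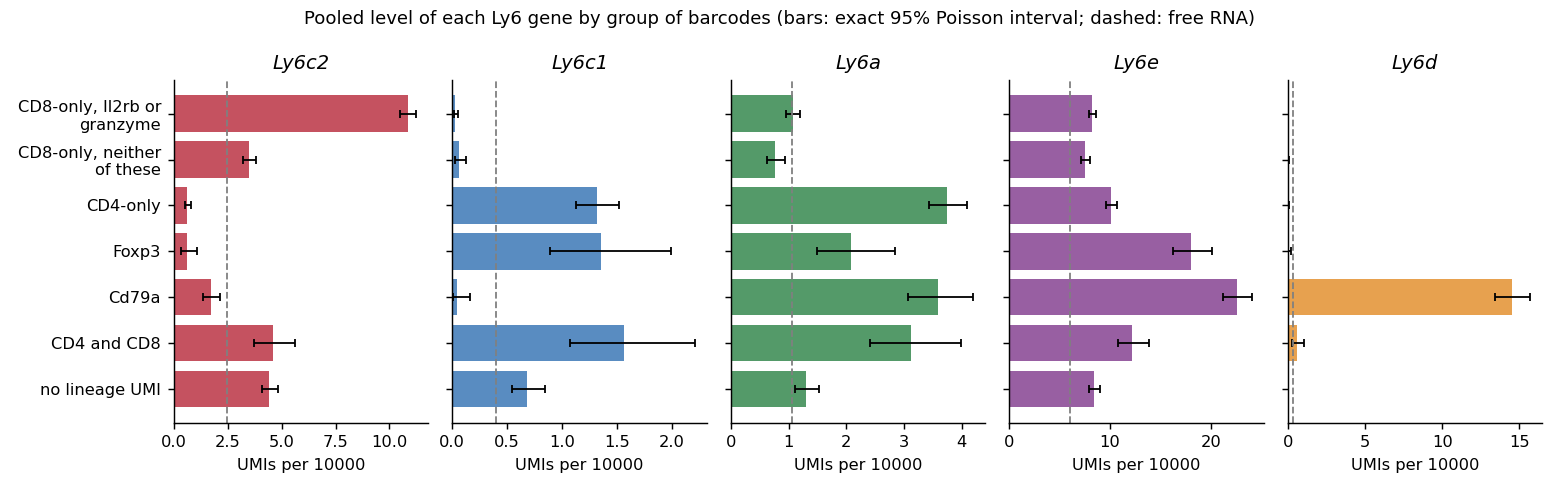
Pooled UMIs per 10000 of each Ly6 gene (horizontal axis, from 0, scaled per gene) in 7 groups of barcodes. Bars carry exact 95% Poisson intervals and the dashed line is the level in free RNA. Ly6c2 is highest at 10.9 in CD8-only barcodes with Il2rb or granzyme, Ly6c1 is under 0.1 in both CD8-only groups, and Ly6d reaches 14.5 in Cd79a barcodes.

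Within the CD8-only barcodes Ly6c2 was uneven. With Il2rb or granzyme, the level per barcode ran from 0 over a median of 5.19 to 101 per 10000, and without these genes from 0 over a median of 0 to 47.4. The ranges overlap, but of 151 CD8-only barcodes with 10 or more Ly6c2 UMIs, 132 held Il2rb or granzyme. That is 87.4%, while the group makes up 59.8% of the CD8-only barcodes. A deeper barcode passes this cutoff more easily, and the median depth was 6842 UMIs with and 4089 without Il2rb or granzyme. After each barcode was drawn down to 2500 UMIs, leaving out shallower ones, 58.0% (53.1% to 62.9%) of 405 barcodes with Il2rb or granzyme and 22.8% (17.6% to 28.7%) of 237 without held Ly6c2. Before this thinning the shares were 63.5% and 24.8%. As a background, Ly6c2 was found in 5.28% (2.92% to 8.71%) of 265 CD4-only barcodes thinned alike, and in 3 of 88 Cd79a barcodes without Cd3e before thinning.

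The higher Ly6c2 went with Il2rb more than with the granzymes. These splits of the CD8-only barcodes were chosen after the levels had been seen. The 313 barcodes with Il2rb and no granzyme held Ly6c2 at 11.2 per 10000 (10.8 to 11.7), the 86 with both at 9.84 (9.02 to 10.7), and the 20 with a granzyme alone at 6.99 (5.39 to 8.90). Without granzyme, the Ly6c2 level was 3.50 at 0 Il2rb UMIs, 5.52 (5.03 to 6.05) at 1, 8.81 (7.97 to 9.70) at 2 and 16.3 (15.5 to 17.0) at 3 or more. At an equal depth of 2500 UMIs it was 4.25 (3.82 to 4.71) at 0, 8.28 (7.32 to 9.33) at 1 and 15.1 (13.4 to 16.9) at 2 or more, the same order at equal depth. Il2rb was among the genes that set the groups, so this order is a description. Split on granzymes alone, Ly6c2 differed by a ratio of 1.11, against 3.11 for the split as defined. The 595 barcodes without granzyme in that split include the 313 with Il2rb, so the 2 ratios have unlike comparators.

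**Figure D2:**
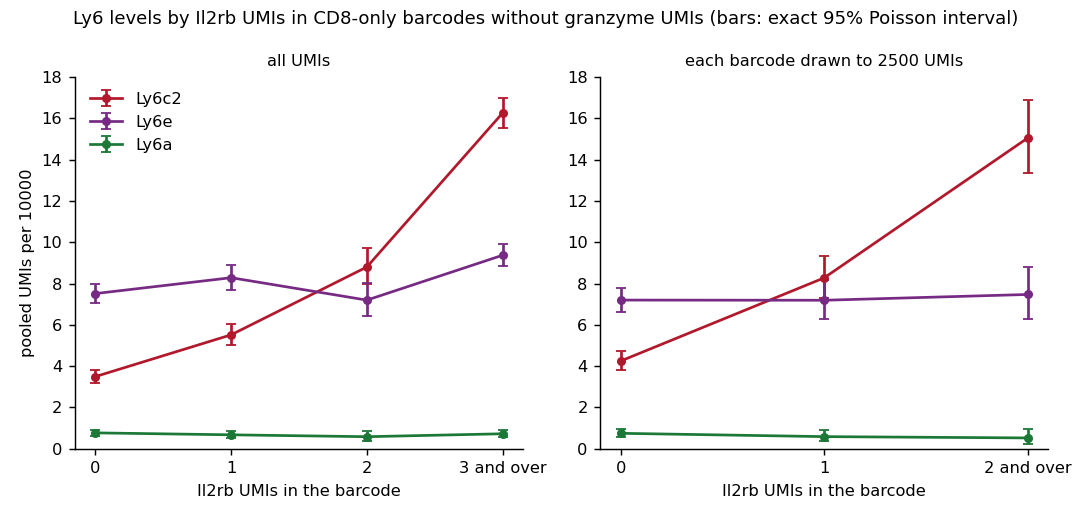
Pooled UMIs per 10000 (vertical axis) of Ly6c2, Ly6e and Ly6a against the number of Il2rb UMIs in CD8-only barcodes without granzyme UMIs, at full depth on the left and at 2500 UMIs per barcode on the right. Points carry exact 95% Poisson intervals. Ly6c2 climbs from 3.50 to 16.3 on the left and from 4.25 to 15.1 on the right, while Ly6a stays under 1.

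Genes whose level followed that of Ly6c2 most closely over the 701 CD8-only barcodes, by Pearson's r on a natural log scale (UMIs per 10000, plus 1), were Hopx (r = 0.41), Il2rb (0.40), Rps12 (0.39), Rpl29 (0.39) and Ctsw (0.39). Hopx encodes a homeodomain-only protein, Ctsw the cathepsin W of cytotoxic lymphocytes, and Rps12 and Rpl29 encode ribosomal proteins. All barcodes share a library, and both depth and the ribosomal share enter such values. Malat1, a nuclear RNA, lay at the other end (r = -0.35). Ly6c2 was 13.4 per 10000 (12.9 to 13.9) in the 278 CD8-only barcodes with Ccl5, a chemokine of memory CD8 T cells, and 4.72 (4.46 to 5.0) in the 423 without. It was 5.85 (5.18 to 6.59) with and 8.90 (8.61 to 9.19) without Gzmk. Ly6c2 therefore went with Ccl5 and was lower where Gzmk was held.

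The ribosomal share moved with Ly6c2. In barcodes of low share the level was 3.60 (3.02 to 4.26) with and 0.386 (0.211 to 0.647) without Il2rb or granzyme, and in the others 11.9 (11.5 to 12.3) and 4.59 (4.18 to 5.02). The ratio without the low-share barcodes was 2.59, and with clonotyped barcodes alone 2.63. Groups called at an equal 2500 UMIs gave 2.11. All of these keep the direction, and the part of RNA quality in the size was not tested.

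Ly6C is also a marker of monocytes and natural killer (NK) cells, so their genes were read in the same barcodes. The NK markers were Ncr1, Klrb1c, Klre1, Tyrobp, Fcer1g and Eomes. The monocyte markers were Lyz2, Csf1r, Ccr2, Fcgr3, Ctss, Ms4a6c and F13a1. Eomes is also in the list of naive and memory genes used below, so the NK sum is not specific to NK cells. NK markers summed to 1.83 per 10000 in CD8-only barcodes with and 0.800 in those without Il2rb or granzyme, and monocyte markers to 2.11 and 1.99. Among those with Il2rb or granzyme, the NK sum was 1.96 at 10 or more Ly6c2 UMIs and 2.32 at 0, and the monocyte sum 1.79 and 2.93. The NK sum moved with the groups, and the part of either cell type in the Ly6c2 level was not tested. Over all 419 barcodes Csf1r, a defining gene of monocytes, had 3 UMIs, F13a1 9, Lyz2 33 and Ms4a6c 122, and Ncr1, a defining gene of NK cells, had 6. The rest of both sums lay in the other markers of each list. At least 3 monocyte markers were held by 14 of these barcodes, and at least 3 NK markers by 8. Outside the T and B groups, 15 barcodes with at least 3 monocyte markers and no Cd3e held 74 Ly6c2 UMIs, a level of 7.96 (6.25 to 10.0), but in 5 of them. The 11 such barcodes with NK markers held 61, a level of 13.6 (10.4 to 17.4), in 7.

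Ly6c1, the near copy, followed the opposite lineage. CD4-only barcodes held 180 Ly6c1 UMIs, a level of 1.31 per 10000 (1.13 to 1.52), in 63 of 351 barcodes. CD8-only barcodes with Il2rb or granzyme held 9 in 9 barcodes, a level of 0.0289 (0.0132 to 0.0548), and those without held 9 in 4 barcodes, a level of 0.0643 (0.0294 to 0.122). The CD4-only level was 20.4-fold (10.5 to 45.4) that of the CD8-only barcodes without Il2rb or granzyme, and Ly6c1 ranked 17 from the lowest of 9019 genes in that comparison. A single CD8-only barcode held 6 of the 9 UMIs, and without it and its counterpart in the CD4-only group the CD8-only level was 0.0182 times the CD4-only level, against 0.0490 with it. The CD8-only barcodes with and without Il2rb or granzyme held Ly6c1 at a ratio of 0.449 (0.158 to 1.28), which turned to 1.20 without the barcode with most UMIs in each, so no direction is given.

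Of the Ly6c1 and Ly6c2 UMIs together, Ly6c1 made up 0.462% of 3897 in CD8-only barcodes and 67.4% of 267 in CD4-only barcodes. Of the 351 CD4-only barcodes, 62 held Ly6c1 alone, 15 held Ly6c2 alone and 1 held both (r = -0.080). With Ly6c2 in so few barcodes, little overlap would be found even without any exclusion, so none is read from these counts. The Ly6c2 of the CD4-only group sat in few barcodes, with 64 of its 87 UMIs in 4 of them. In CD8-only barcodes 8 of the 13 with Ly6c1 also held Ly6c2, which 336 of 701 held. The share of Ly6c1 thus differed between the lineages within 1 library and 1 way of counting.

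**Figure D3:**
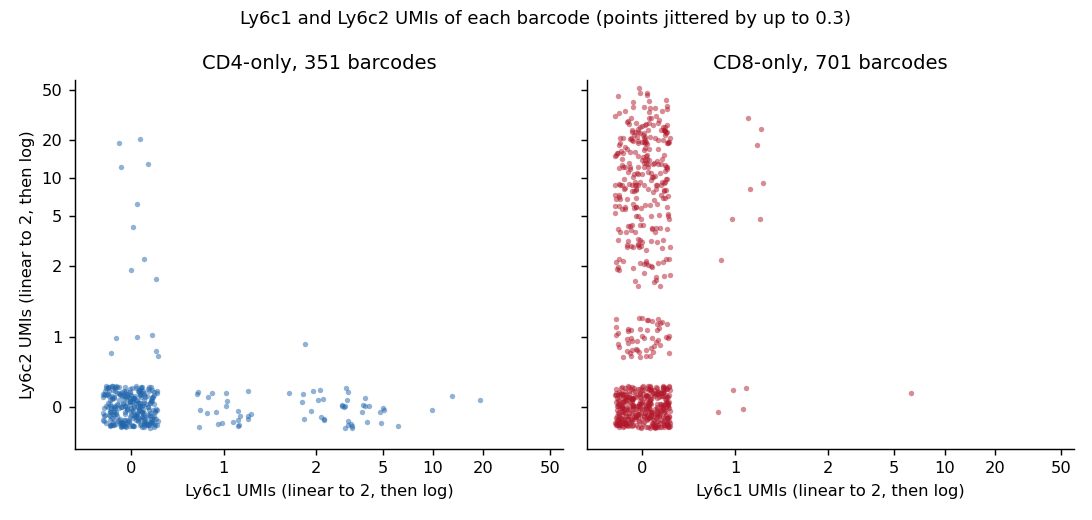
Ly6c1 UMIs (horizontal) and Ly6c2 UMIs (vertical) of each CD4-only barcode on the left and each CD8-only barcode on the right. Axes are linear to 2 and logarithmic above, and points are jittered. CD4-only barcodes spread along the Ly6c1 axis to 19 UMIs and, in fewer barcodes, along the Ly6c2 axis to 20, with 1 barcode off both axes. CD8-only barcodes spread along the Ly6c2 axis to 52 UMIs, with 8 barcodes off both axes.

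Foxp3 barcodes held both copies at levels near those of CD4-only barcodes. Ly6c1 was 1.36 per 10000 (0.886 to 1.99), with 26 UMIs in 10 of 39 barcodes, and its ratio to the CD4-only level was 1.03 (0.657 to 1.56). Ly6c2 was 0.626 (0.324 to 1.09), with 12 UMIs in 3 barcodes, and its ratio was 0.987 (0.491 to 1.81). The intervals reach a change of more than 1.5-fold, so equality is not shown. Over CD8-only barcodes no gene followed Ly6c1 closely: the highest r was 0.20, which in counts this sparse is no finding. Over the 351 CD4-only barcodes, of which 63 held Ly6c1, the highest were Selenop (r = 0.28), Gm14085 (0.24) and Eef1b2 (0.24).

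Ly6a was higher in CD4-only than in CD8-only barcodes. CD4-only barcodes held 514 Ly6a UMIs in 144 barcodes, a level of 3.75 per 10000 (3.43 to 4.09). CD8-only barcodes held it at 1.07 (0.959 to 1.19) with and 0.771 (0.632 to 0.931) without Il2rb or granzyme. The level of CD4-only barcodes was 4.86-fold (3.94 to 6.04) that of the latter. At 2500 UMIs, 37.0% (31.2% to 43.1%) of CD4-only barcodes held Ly6a, against 16.8% (13.3% to 20.8%) and 14.3% (10.1% to 19.5%) of the CD8-only groups. Foxp3 barcodes had a lower level than CD4-only barcodes, 2.09 (1.49 to 2.84), at a ratio of 0.557 (0.393 to 0.769). In that comparison 5.46% of 7949 genes were at least 2-fold higher and 13.2% at least 2-fold lower, and Ly6a was not among either.

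**Figure D4:**
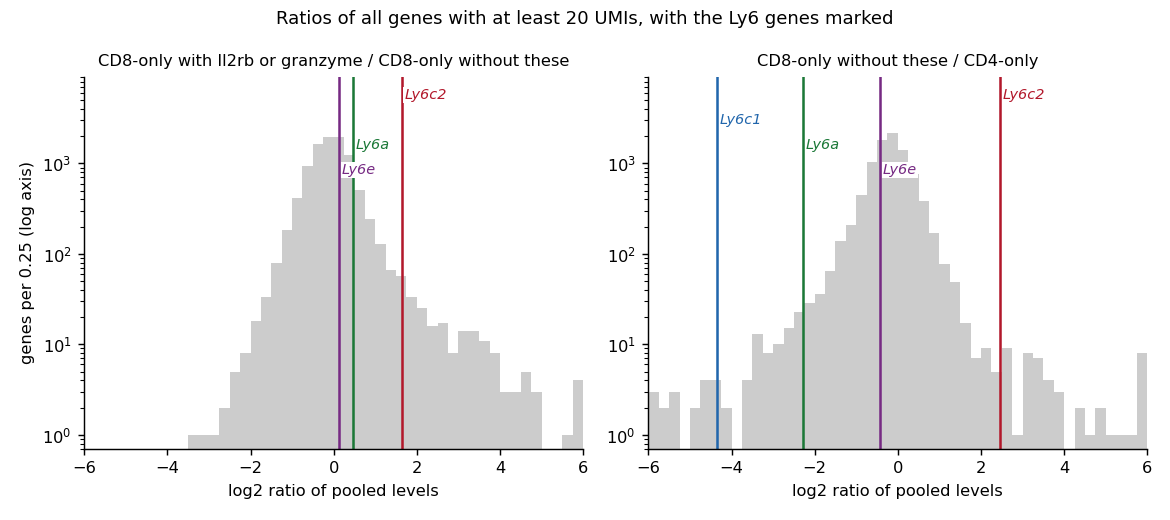
Number of genes (vertical, log axis) by log2 ratio of pooled levels (horizontal) for all genes with at least 20 UMIs, with CD8-only barcodes with over without Il2rb or granzyme on the left and the latter over CD4-only barcodes on the right. Values beyond 6 are drawn in the end bins. Ly6c2 lies in the upper tail of both, Ly6c1 and Ly6a in the lower tail on the right, and Ly6e near the middle of both.

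In CD8-only barcodes Ly6a went with the granzymes, where Ly6c2 had gone with Il2rb. Its level was 0.684 (0.585 to 0.795) with Il2rb alone, 2.45 (2.05 to 2.90) with Il2rb and a granzyme and 3.44 (2.35 to 4.85) with a granzyme alone. It was 2.85 (2.39 to 3.38) in the 80 barcodes with Gzmk and 0.763 (0.680 to 0.852) in the 621 without. The number of Il2rb UMIs made no such difference, with 0.677 (0.513 to 0.877) at 1 and 0.728 (0.582 to 0.898) at 3 or more. Split on Il2rb alone the ratio was 1.07, and on granzymes alone 3.62, against 1.39 (1.12 to 1.74) for the split as defined. The genes closest to Ly6a over CD8-only barcodes were AW112010 (r = 0.28), the chemokine receptor Cxcr3 (0.26), S100a4 (0.25), the granule gene Nkg7 (0.25) and the immunoproteasome subunit Psmb8 (0.25), and Lef1, a factor of naive T cells, was at the other end (-0.26).

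Clonotypes split the members in a like way. The 55 CD8-only barcodes of clonotypes seen in 2 or more barcodes held Ly6a at 2.22 (1.71 to 2.83), against 0.960 (0.861 to 1.07) in the 458 whose clonotype was seen once. For Ly6c2 the levels were 8.02 (7.03 to 9.11) and 9.78 (9.46 to 10.1), so over all CD8-only barcodes the repeated clonotypes had more Ly6a and less Ly6c2. Within those with Il2rb or granzyme the levels were 2.16 (1.63 to 2.80) and 1.0 (0.884 to 1.14) for Ly6a and 7.67 (6.64 to 8.81) and 12.1 (11.6 to 12.5) for Ly6c2. Among those without, Ly6c2 ran the other way, at 10.7 (7.50 to 14.8) in only 6 barcodes of repeated clonotypes against 4.22 (3.83 to 4.63) in 164, and Ly6a stood at 2.68 (1.22 to 5.08) and 0.853 (0.684 to 1.05). How many clonotypes the 55 barcodes came from is not given here. Barcodes that share a clonotype are not independent, which the intervals do not cover.

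In CD4-only barcodes Ly6a and Ly6c1 parted along S100a4, a calcium-binding protein gene of memory T cells. This split was also chosen after the values had been seen. The 43 CD4-only barcodes with S100a4 held Ly6a at 9.31 per 10000 (8.13 to 10.6), and the 308 without at 2.57 (2.28 to 2.88), a ratio of 3.62 (3.03 to 4.33). For Ly6c1 the levels were 0.0835 (0.0101 to 0.302) and 1.57 (1.35 to 1.82), with 2 UMIs in 1 barcode against 178 in 62. At 2500 UMIs, 84.6% of those with S100a4 and 28.8% of those without held Ly6a, and 2.56% and 19.9% held Ly6c1. In this comparison 8.74% of 7613 genes were at least 2-fold higher and 15.6% at least 2-fold lower. Ly6a ranked 138 from the highest and Ly6c1 4 from the lowest. Ly6c2 held 51 UMIs in 6 barcodes with S100a4 and 36 in 10 without, and its ratio turned from 6.69 to 0.210 when groups were called at 2500 UMIs, so no direction is given for it.

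**Figure D5:**
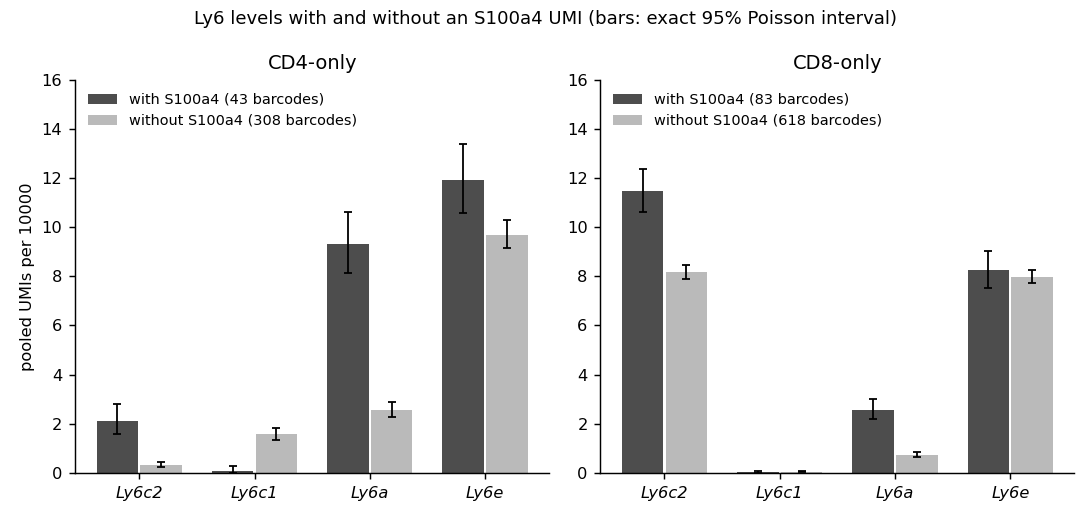
Pooled UMIs per 10000 (vertical axis, from 0) of Ly6c2, Ly6c1, Ly6a and Ly6e in CD4-only barcodes on the left and CD8-only barcodes on the right, with (dark) and without (light) a UMI of S100a4. Bars carry exact 95% Poisson intervals. Ly6a is higher with S100a4 in both, at 9.31 against 2.57 and at 2.58 against 0.742, and Ly6c1 is 0.0835 against 1.57 in CD4-only barcodes.

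The same held for Itgb1. Ly6a was 6.37 (5.68 to 7.13) in CD4-only barcodes with the integrin gene Itgb1 and 2.35 (2.04 to 2.69) in those without, and Ly6c1 was 0.587 (0.390 to 0.848) and 1.70 (1.44 to 1.99). For the homing receptor Ccr7 only Ly6c1 is given here, at 1.62 (1.38 to 1.89) with it and 0.358 (0.185 to 0.626) without. Over the 351 CD4-only barcodes Ly6a was closest to S100a11 (r = 0.47), AW112010 (0.44), S100a6 (0.43), Crip1 (0.39) and Aldoa (0.38), and farthest from Arhgap15 (-0.43) and the naive T cell factor Satb1 (-0.43). Low ribosomal share went with less Ly6a, 1.0 (0.716 to 1.36) against 4.87 (4.45 to 5.33) in the other CD4-only barcodes, and with less Ly6c1, 0.576 (0.365 to 0.865) against 1.61 (1.37 to 1.89). Without the low-share barcodes the S100a4 ratio of Ly6a was 2.82.

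Ly6e was found in all compared groups, and among these it was highest in Cd79a and Foxp3 barcodes. Its level was 22.6 per 10000 (21.2 to 24.0) in Cd79a barcodes, 18.1 (16.2 to 20.1) in Foxp3 barcodes, 10.1 (9.57 to 10.6) in CD4-only barcodes and 8.25 (7.94 to 8.58) and 7.52 (7.07 to 7.99) in CD8-only barcodes with and without Il2rb or granzyme. The counting intervals of the CD8-only groups overlapped each other. Cd79a barcodes exceeded CD4-only barcodes by 2.24-fold (2.06 to 2.43) and Foxp3 barcodes did so by 1.79-fold (1.59 to 2.01). A single Foxp3 barcode held 58 of the 346 Ly6e UMIs of that group, and the Foxp3 ratio was not recomputed under other settings. Low ribosomal share was found in 23.1% of Foxp3 and 40.5% of CD4-only barcodes, and its part in this ratio was not tested. In the comparison of Cd79a with CD4-only barcodes 8.54% of 8473 genes were at least 2-fold higher and 14.8% at least 2-fold lower. At 2500 UMIs Ly6e was held by 88.6% of Cd79a, 79.4% of Foxp3, 75.8% of CD4-only and 71.4% and 70.9% of CD8-only barcodes.

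The CD8-only groups gave no settled direction for Ly6e. The ratio with to without Il2rb or granzyme was 1.10 (1.02 to 1.18), and it fell to 0.958 without barcodes of low ribosomal share, 0.989 among clonotyped barcodes, 0.942 with groups called at 2500 UMIs and 0.837 when split on granzymes alone. Over CD8-only barcodes the 5 genes closest to Ly6e all encode ribosomal proteins, led by Rps3 (r = 0.59) and Rps15a (0.57), and Dock2 (-0.49) and Malat1 (-0.43) lay at the other end. In CD4-only barcodes Ly6e was 4.59 (3.95 to 5.30) at low and 12.4 (11.7 to 13.1) at other ribosomal share, and in Cd79a barcodes 9.04 (7.02 to 11.5) and 25.4 (23.8 to 27.0).

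Ly6d was a gene of the Cd79a barcodes. They held 647 of its 667 UMIs (97.0%), a level of 14.5 per 10000 (13.4 to 15.7), in 81 of 106 barcodes, and the level per barcode ran from 0 over a median of 9.73 to 75.8. All other groups together held 20 UMIs in 7 barcodes, 12 of them in 1 barcode with Cd4 and CD8 UMIs, which also held at least 3 markers of plasmacytoid dendritic cells. Foxp3 barcodes held 0 UMIs, which allows up to 0.157 per 10000 by a limit of 3 UMIs. At 2500 UMIs 70.9% (59.6% to 80.6%) of Cd79a barcodes held Ly6d, against 0.377% of CD4-only barcodes, whose median depths were 3657 and 3361 UMIs. Over all 1600 barcodes Ly6d was closest to Cd79a (r = 0.90), Cd74 (0.89), H2-Aa (0.88), Cd79b (0.88) and H2-Eb1 (0.88), genes of the B cell receptor and of MHC class II. The groups do not enter these values. Ly6d was chosen by its level across groups that Cd79a helped to set, so the value for Cd79a is a description.

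The Cd79a group was not pure in the other members. Its 18 barcodes with Cd3e held 71 of its 77 Ly6c2 UMIs, while the 88 without Cd3e held 6, a level of 0.171 (0.0629 to 0.373). Those 88 barcodes held Ly6d at 17.7 (16.3 to 19.1), Ly6e at 25.3 (23.6 to 27.0) and Ly6a at 4.29 (3.63 to 5.03), and 1 Ly6c1 UMI. The combination was thus Ly6d, Ly6e and Ly6a with almost none of either Ly6C copy. Ly6a in all Cd79a barcodes, 3.60 (3.06 to 4.20), differed from the CD4-only level by less than the interval of the ratio, 0.959 (0.798 to 1.15).

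Free RNA in the droplets held all 5 genes. In 20532 barcodes with 10 to 50 UMIs the level per 10000 was 2.46 for Ly6c2, 0.396 for Ly6c1, 1.06 for Ly6a, 6.01 for Ly6e and 0.312 for Ly6d. Ly6d gives a rough limit on it in T cells: were every Ly6d UMI of the CD8-only barcodes with Il2rb or granzyme free RNA, 1.03% of their UMIs would be, with an upper bound of 5.73%. The T cell groups hold no Cd79a UMI by definition, and Ly6d followed Cd79a (r = 0.90). T cell barcodes that caught free B cell RNA may thus have been left out, so this limit and those below may be too low. The same reckoning gives 11.4%, with an upper bound of 26.7%, for CD8-only barcodes without these genes, where free RNA at that bound would bring 0.657 of the 3.50 Ly6c2 UMIs per 10000. For CD4-only barcodes it gives 4.68%, with an upper bound of 16.9%. At that bound free RNA would bring 0.415 Ly6c2 UMIs per 10000 to CD4-only barcodes, where 0.634 were found, although 64 of those 87 UMIs lay in 4 barcodes. It would bring 0.178 of Ly6a, where 3.75 were found.

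The rest of the family was sparse. Of 31 further genes of the Ly6 and urokinase receptor family, 30 are in the matrix, 13 had no UMI in the 1600 barcodes, 14 had 1 to 19 and 3 had at least 20. Lypd6b, with 287 UMIs, was at 0.208 per 10000 (0.161 to 0.266) in CD8-only barcodes with Il2rb or granzyme and 0.578 (0.459 to 0.719) in those without, a ratio of 0.360 (0.256 to 0.506), and at 0.547 (0.430 to 0.686) in CD4-only barcodes. Plaur, the urokinase receptor, had 34 of its 92 UMIs in Cd79a barcodes, a level of 0.764 (0.529 to 1.07), and 1 UMI in CD4-only barcodes. The barcodes with no lineage gene held 37, a level of 0.298 (0.210 to 0.411), and CD8-only barcodes without Il2rb or granzyme held 13. Ly6k had 41 UMIs and was under 0.1 in both CD8-only groups.

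Other interferon-induced genes were near even between the CD8-only groups. Of 41 with enough UMIs in the CD8-only comparison, 2 were at least 2-fold higher with Il2rb or granzyme and 2 at least 2-fold lower (over all genes 4.32% and 3.44%), and their median ratio was 1.05 against 0.960 over all genes. Oas1a was the highest (4.04, 1.74 to 11.5) and Iigp1 the lowest (0.317, 0.220 to 0.453). Against CD4-only barcodes, CD8-only barcodes without Il2rb or granzyme had 1 of 39 higher and 7 lower (over all genes 2.35% and 6.32%), with Ifi27l2a at 0.321 (0.276 to 0.373). In Foxp3 barcodes, 4 of 36 were higher and 2 lower (5.46% and 13.2%), with Ifi27l2a at 2.59 (2.23 to 2.99). In Cd79a barcodes, 0 of 37 were higher and 11 lower than in CD4-only barcodes (8.54% and 14.8%), with a median ratio of 0.715 against 0.922 over all genes.

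The genes that build the GPI anchor of Ly6 proteins were near even between the CD8-only groups. Of 28 in the CD8-only comparison 0 were at least 2-fold higher with Il2rb or granzyme and 1, Pign at 0.458 (0.307 to 0.682), was lower, against 4.32% and 3.44% of all genes, with a median ratio of 0.994 against 0.960. Pgap1, which remodels the anchor, was the 1 of 23 that was higher in Cd79a than in CD4-only barcodes (4.54, 3.52 to 5.86), where 8.54% of all genes were. In that comparison 2 were lower, against 14.8% of all genes. In Foxp3 against CD4-only barcodes 0 of 22 were higher and 4 lower (over all genes 5.46% and 13.2%). Of 28 naive and memory genes, 16 were at least 2-fold higher with Il2rb or granzyme and 0 lower, with a median ratio of 3.24 against the same 0.960. Ccl5 led beside Il2rb itself, at 63.7 per 10000 against 2.62 (24.3-fold, 21.9 to 27.0), and the naive factors Lef1 (0.555, 0.520 to 0.591) and Satb1 (0.594, 0.548 to 0.644) were lowest. Il2rb is in that list and set the groups, so its row is no finding, yet it is counted among the 16 and in the median.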

How the data were processed

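The authors ran Cell Ranger (version 4 in the matrix header, GRCm38 per the labels) and deposited unnormalised UMI counts for each gene in every barcode, without a cell filter, and a contig table with clonotypes. The matrix holds 12855001 UMIs. Counts were read as deposited. Barcodes over a UMI limit (lowest kept 1334; 1600 of 300213) were grouped by their UMIs, and levels were pooled counts per 10000. Ratios of all genes with at least 20 UMIs in both groups together were called at 2-fold, a group at 0 being set at 3 UMIs. Shares were compared after thinning to 2500 UMIs. Clonotypes are the authors'. Doublets were predicted with Scrublet in Scanpy 1.11.5 (10 barcodes) and kept. Python 3.11.15 was used. The ratio step was checked on simulated pooled counts, which hold no variation between barcodes. The members and lists were chosen with earlier results of these data known. Named genes were the members, family genes with at least 20 UMIs, the 5 most like genes of each member, and genes at the ends of each list. Values by Ccl5, S100a4, Itgb1, Ccr7, Gzmk, Cd3e and Il2rb number were added after seeing the data. Alternatives were other UMI limits, group rules, thinning, means, free RNA, doublets and subsets of barcodes. With 1 library no test was run and no p-value is given.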

Additional observations from a re-analysis of the deposited data

Results flagged for a closer look

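The 1908 barcodes with 200 UMIs or more that fell below the kept 1600, which entered no comparison above, also held the 5 genes, at levels above the limit that a count of 0 would allow. Ly6c2 stood at 0.651 per 10000, Ly6e at 1.41, Ly6a at 0.388, Ly6d at 0.125 and Ly6c1 at 0.0970. Each of these levels was below that of free RNA, which was 2.46, 6.01, 1.06, 0.312 and 0.396 in the same order.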

How the results depend on the processing

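Of 200 alternative values, 155 stayed within the counting interval of the main value. Where that interval covers both directions, a value within it can still change direction. Ly6c1 with over without Il2rb or granzyme did so, from 0.449 to 1.20 without the top barcodes. Ly6c1 in Foxp3 over CD4-only barcodes did so too, from 1.03 to 0.855. With groups and levels taken at 2500 UMIs, the ratio with to without Il2rb or granzyme was 2.11 for Ly6c2 and turned to 0.942 for Ly6e, the ratio of CD8-only barcodes without these genes to CD4-only barcodes was 7.16 for Ly6c2 and 0.256 for Ly6a, Ly6e in Cd79a over CD4-only barcodes was 2.57, and Ly6d in Cd79a barcodes was 17.4 per 10000. Without barcodes of low ribosomal share these were 2.59 and, turned, 0.958 for with over without, 7.19 for Ly6c2 over CD4-only, 2.05 for Ly6e and 16.8 for Ly6d. Among clonotyped barcodes the with over without ratio was 2.63 for Ly6c2 and turned to 0.989 for Ly6e. Split on granzymes alone, it was 1.11 for Ly6c2, 3.62 for Ly6a and, turned, 0.837 for Ly6e, and the ratio to CD4-only was 13.3 for Ly6c2 and 0.814 for Ly6e. In that split the barcodes without granzyme include those with Il2rb. Split on Il2rb alone, Ly6a was 1.07. A mean over barcodes gave 3.58 for Ly6c2 with over without and 0.660 for Ly6e over CD4-only. Without the barcode with most UMIs in each group Ly6c1 over CD4-only was 0.0182. At 2 UMIs of the defining genes Ly6d was 17.4 as well.

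The S100a4 ratios were added after seeing the data. At 2500 UMIs Ly6c2 turned to 0.210 and Ly6c1 was 0, as it was without the top barcode. Without low ribosomal share Ly6c2 was 13.9, Ly6a 2.82 and Ly6e, turned, 0.965. Among clonotyped barcodes these were 4.28, 3.02 and 1.07. Asking for 50 UMIs of a gene in place of 20, genes past 2-fold numbered 210 higher and 167 lower (416 and 331 before) for with over without, 94 and 246 (212 and 570) for CD8-only without over CD4-only, 180 and 520 (434 and 1046) for Foxp3 and 389 and 741 (724 and 1250) for Cd79a over CD4-only, of fewer genes tested. Thinned to the UMI limit of the kept barcodes, Ly6c2 was held by 48.2% and 15.2% of the CD8-only groups, and in CD4-only barcodes Ly6c1 by 9.69%, Ly6a by 23.4% and Ly6e by 61.5%, each draw being shallower. The cause of the other changes was not tested. No paired analysis was possible because there is 1 library, which also leaves no replicate to leave out. Depth limits Ly6c1 in CD8-only barcodes (18 UMIs) and all members in the 39 Foxp3 barcodes.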

Other observations

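Some barcodes belonged to none of the compared groups. The 46 with Cd4 and a CD8 gene held Ly6c1 at 1.56 per 10000 (1.07 to 2.21) in 13 barcodes and Ly6c2 at 4.59 (3.71 to 5.62), but the latter in 4 barcodes. The 357 with no lineage gene held Ly6c2 at 4.44 (4.07 to 4.82), Ly6c1 at 0.684 (0.547 to 0.846), Ly6a at 1.30 (1.11 to 1.52), Ly6e at 8.43 (7.92 to 8.95) and no Ly6d UMI, and 61.9% of them were of low ribosomal share. Among both kinds, with no Cd3e, the 5 with at least 3 markers of plasmacytoid dendritic cells held Ly6c2 at 12.7 (9.79 to 16.2) and Ly6e at 24.4 (20.3 to 29.2), the 18 with neutrophil markers held Ly6c2 at 0.832 (0.270 to 1.94), and the 17 with platelet markers held 1 UMI of the 5 genes in all, of Ly6e. The 15 with monocyte markers held Ly6e at 18.6 (15.9 to 21.6) and the 11 with NK markers at 3.78 (2.20 to 6.05).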
